A study of Mus musculus with 8 samples.

Results

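The genes described here are those that bring glucose into the heart muscle cell and fix it there, namely 5 facilitative glucose transporters (Slc2a1, Slc2a3, Slc2a4, Slc2a8 and Slc2a12) and 3 hexokinases (Hk1, Hk2 and Hk3). They were taken by name as gene families, and all 8 were found among the 27179 genes of the count table. The libraries hold poly-A RNA of neonatal cardiomyocytes (NCMs) from C57Bl/6J mice on the day of birth (PND0), and the question was whether gene expression differs with what the mother had breathed. During pregnancy the dams breathed either filtered air (FA) or diesel exhaust (DE) from E0.5 to E17.5. The exhaust was given in daytime sessions from Monday to Friday and not continuously. There were 4 FA libraries (replicates 2, 3, 4 and 6) and 4 DE libraries (replicates 1, 7, 3 and 5), each from the cells of 1 male heart, and the litters are not given in the sources used here. The study's methods state fewer libraries per group and do not name them, so all 8 were used. In both groups the hearts had been dissociated with enzymes and the cells pre-plated so that fibroblasts could attach and be left behind. The cells were held in medium with serum and Ara-C before they were frozen, so the RNA is that of isolated cells and not of intact tissue.

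Glucose enters cells down its gradient through transporters of the GLUT family, and a hexokinase then phosphorylates it, which traps it in the cell and commits it to glycolysis, glycogen or the pentose phosphate pathway. GLUT1, encoded by Slc2a1, serves basal uptake and is the form typical of the fetal heart, while GLUT4, encoded by Slc2a4, is held in vesicles and moves to the surface with insulin or contraction, and gains ground as the heart matures. Among the hexokinases, Hk1 is the broadly expressed form, Hk2 is the inducible form of muscle and heart, and Hk3 is found mainly in white blood cells.

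Totals ran from 17943024 to 39839737 counts per library, and 14966 genes passed the filter on low counts. Cardiomyocyte markers, such as Myh6 and Tnnt2, summed to 70652 to 75407 CPM (counts scaled to a common library total) in FA and 61535 to 71288 CPM in DE, far above those of any other cell type looked for. The sample names of all FA libraries and of DE replicates 1 and 7 carry the number 11, and those of DE replicates 3 and 5 the number 12. What this number stands for is not given in the sources used here. The libraries with the number 12 stood further from FA than the others did, and because only DE libraries carry it, the number and the exposure cannot be told apart for them. The changes of the members and the calls of the pathway genes are therefore also given for the DE libraries of either number. Fewer cells of a type and less RNA per cell cannot be told apart in bulk RNA.

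A gene was called changed where edgeR's quasi-likelihood test gave a p of 0.05 or less after Benjamini-Hochberg adjustment over all tested genes and the groups differed by at least 25%. Of the 7 members that could be tested, only Slc2a1 was called, and it was higher in DE. Over all tested genes 5.8% were called, 3.58% higher and 2.22% lower in DE. The CPM of FA and DE did not overlap for 3 of the 7, which were Slc2a1 and Slc2a3 (higher in DE) and Slc2a12 (lower in DE), against 14.7% of all tested genes. The remaining tested members, Slc2a4, Slc2a8, Hk1 and Hk2, overlapped between the groups.

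**Figure D1:**
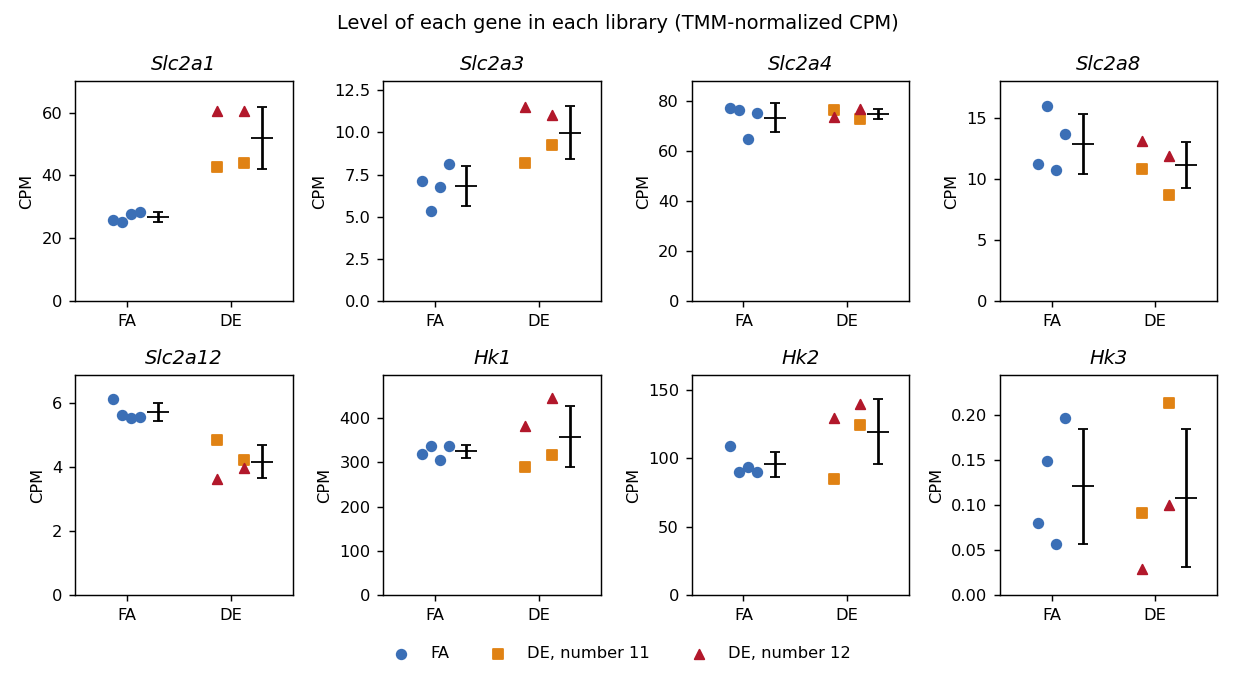
Each panel plots 1 gene, with TMM-normalized CPM on a linear axis from 0 and 1 point per library (circles, FA; squares, DE libraries with the number 11; triangles, DE libraries with the number 12), and the horizontal marks and bars give the mean and SD of 4 libraries. All 4 DE libraries lie above all 4 FA libraries for Slc2a1, with the triangles at 60.5 CPM highest, while the groups overlap for Slc2a4.

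Slc2a1, the basal transporter GLUT1, lies on chromosome 4 (mm10, chr4:119108745-119137330, plus strand; Entrez gene 20525). Its level in FA was 26.0, 25.2, 27.7 and 28.5 CPM in replicates 2, 3, 4 and 6. In DE it was 42.7, 44.1, 60.5 and 60.5 CPM in replicates 1, 7, 3 and 5. The FA libraries lay close together, every DE library was above all of them, and the DE libraries formed a lower pair (number 11) and a higher pair (number 12). The mean rose from 26.8 ± 1.52 CPM (SD, n = 4) in FA to 51.9 ± 9.89 CPM (SD, n = 4) in DE. This is 1.94-fold (95% interval 1.58 to 2.37), or a log2 fold change of 0.95 (SE 0.13), with an adjusted p of 0.00308 in edgeR's quasi-likelihood test. Counts behind these values ran from 491 to 2428 per library.

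The DNA just before the start of Slc2a1 is shown because this was the called member, with that of Hk2, the only one of the 6 members examined with more than 1 copy of ACGTG. Both run 5′ to 3′ on the strand of the gene and come from the 250 bases before the RefSeq start (GRCm38.p6). For Hk2 all 250 are printed (chr6:82774455-82774704, minus). GENCODE places the earliest start of Slc2a1 34 bases before that of RefSeq, so the last 31 bases are left out there (chr4:119108495-119108713, plus). Capitals mark ACGTG, 1 form of the core letters that hypoxia-inducible factors bind, read on either strand, so that a copy on the other strand appears as CACGT. Other forms of the core were not searched for, so 0 copies of ACGTG does not mean that the core is absent.
Slc2a1: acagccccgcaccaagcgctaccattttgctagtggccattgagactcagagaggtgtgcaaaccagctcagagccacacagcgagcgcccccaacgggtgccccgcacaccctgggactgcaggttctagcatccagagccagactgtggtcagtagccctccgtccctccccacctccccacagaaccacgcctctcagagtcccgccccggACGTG
Hk2: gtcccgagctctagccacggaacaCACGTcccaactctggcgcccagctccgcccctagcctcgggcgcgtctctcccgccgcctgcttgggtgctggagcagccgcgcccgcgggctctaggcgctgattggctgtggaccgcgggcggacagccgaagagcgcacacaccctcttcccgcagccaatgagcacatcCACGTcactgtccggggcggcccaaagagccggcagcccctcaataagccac
In the full 250 bases, Slc2a1 held 1 copy of ACGTG, which began 36 bases before the RefSeq start and spans the GENCODE start, and Hk2 held 2, at 226 and 52 bases before it. Hk3 also held 1, at 156 bases, whereas Slc2a8, Slc2a12 and both RefSeq starts of Hk1 held 0. At least 1 copy was present in 16.6% of 32851 mouse promoters of the same length. None of these 7 stretches held CACGTG, a longer motif that contains ACGTG and occurs in 6.02% of the promoters. GGGCGG, the GC box, occurred at 2 positions for Slc2a1 and 3 for Hk2, and in 32.7% of promoters. Their GC content was 66.4% and 69.6%, and that of the other 5 stretches ran from 47.2% (Hk3) to 62.8% (the second start of Hk1). These are matches of letters only, and binding was not measured. Entries for Slc2a3 and Slc2a4 were not used here.

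Slc2a3 encodes GLUT3, a transporter of high affinity known from neurons, platelets and white blood cells, and lies at chr6:122727809-122802363 (minus; Entrez gene 20527). It measured 7.11, 5.33, 6.77 and 8.16 CPM in FA replicates 2, 3, 4 and 6. In DE replicates 1, 7, 3 and 5 it measured 8.17, 9.27, 11.5 and 11.0 CPM. The groups did not overlap, but the highest FA library (8.158 CPM) and the lowest DE library (8.165 CPM) were nearly level. The mean CPM of 4 libraries was 6.84 ± 1.17 (SD) in FA against 9.99 ± 1.55 (SD) in DE, a log2 fold change of 0.55 (SE 0.16, 95% interval 0.20 to 0.90). The adjusted p was 0.0677, so the gene was not called. Slc2a3 overlaps Gm4482, a processed pseudogene on its own strand, and whether reads that fit both were counted is not stated.

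Slc2a4, the insulin-responsive GLUT4 (chr11:69942286-69948216, minus; Entrez gene 20528), was the transporter with the highest CPM in both groups. FA replicates 2, 3, 4 and 6 had 77.0, 76.3, 64.6 and 75.3 CPM. DE replicates 1, 7, 3 and 5 had 76.2, 72.8, 73.5 and 76.6 CPM. All DE libraries lay inside the FA range, and FA replicate 4 was the lowest of all. With means of 73.3 ± 5.87 and 74.8 ± 1.94 CPM (SD, n = 4 each), the log2 fold change was 0.03 (SE 0.09, adjusted p = 0.873). The 95% interval, -0.17 to 0.23 on the log2 scale, or 0.888- to 1.17-fold, leaves out a change of the size measured for Slc2a1.

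Slc2a8 encodes GLUT8, a transporter held mostly on membranes inside the cell (chr2:32972981-32982083, minus; Entrez gene 56017). In FA it had 11.2, 16.0, 10.7 and 13.7 CPM in replicates 2, 3, 4 and 6. DE replicates 1, 7, 3 and 5 had 10.9, 8.68, 13.1 and 11.9 CPM, and the groups overlapped widely. The log2 fold change was -0.20 (SE 0.16, 95% interval -0.56 to 0.15, adjusted p = 0.451), so that neither no change nor a fall to 0.678-fold lay outside the interval.

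Slc2a12 encodes GLUT12, a transporter of heart, muscle and fat that, like GLUT4, can move to the surface with insulin (chr10:22644990-22703880, plus; Entrez gene 353169). FA replicates 2, 3, 4 and 6 had 6.12, 5.63, 5.53 and 5.55 CPM. DE replicates 1, 7, 3 and 5 had 4.84, 4.21, 3.61 and 3.96 CPM. Every DE library was below every FA library, the opposite order to Slc2a1 and Slc2a3. Means of 5.71 ± 0.278 CPM (SD, n = 4) for FA against 4.16 ± 0.517 CPM (SD, n = 4) for DE gave a log2 fold change of -0.46 (SE 0.14, 95% interval -0.76 to -0.16). At an adjusted p of 0.0720 it was not called. It rested on 79 to 229 counts per library, the fewest of the tested members, and the gene overlaps Tbpl1 on the other strand.

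Hk1, the most abundant member, lies at chr10:62268855-62379920 (minus; Entrez gene 15275). It measured 319, 337, 306 and 336 CPM in FA replicates 2, 3, 4 and 6. In DE replicates 1, 7, 3 and 5 it measured 289, 318, 382 and 445 CPM. The DE libraries with the number 12 were above all FA libraries, DE replicate 1 was below all of them, and DE replicate 7 lay within their range. Means were 324.6 ± 15.0 and 358.4 ± 69.5 CPM (SD, n = 4 each), with a log2 fold change of 0.14 (SE 0.13, 95% interval -0.14 to 0.43, adjusted p = 0.517).

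Hk2, the inducible hexokinase that docks on mitochondria, lies at chr6:82725025-82774454 (minus; Entrez gene 15277), downstream of the bases printed above. In FA replicates 2, 3, 4 and 6 its level was 109, 89.6, 93.9 and 90.0 CPM. In DE replicates 1, 7, 3 and 5 it was 84.8, 124, 130 and 139 CPM. DE replicate 1 was the lowest of all 8 libraries and the other DE libraries were the highest. The FA mean of 95.6 ± 9.12 CPM and the DE mean of 119.4 ± 23.9 CPM (SD, n = 4 each) differed by 0.32 on the log2 scale (SE 0.15, 95% interval -0.000193 to 0.64), with an adjusted p of 0.196. Without DE replicate 1 the log2 fold change was 0.45 and the adjusted p 0.0359, which would pass, so this library decides the call.

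Hk3, the hexokinase of white blood cells (chr13:55005985-55021475, minus; Entrez gene 212032), was barely detected. It had 3, 3, 1 and 4 counts in FA replicates 2, 3, 4 and 6, and 3, 4, 1 and 4 counts in DE replicates 1, 7, 3 and 5. With 23 counts in all it did not pass the filter on low counts and a difference was not detectable at this depth. The gene also overlaps Unc5a on the other strand. Markers of white blood cells were low as well, among them Ptprc, the pan-leukocyte antigen CD45, which averaged 0.585 CPM in FA and 0.848 CPM in DE.

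**Figure D2:**
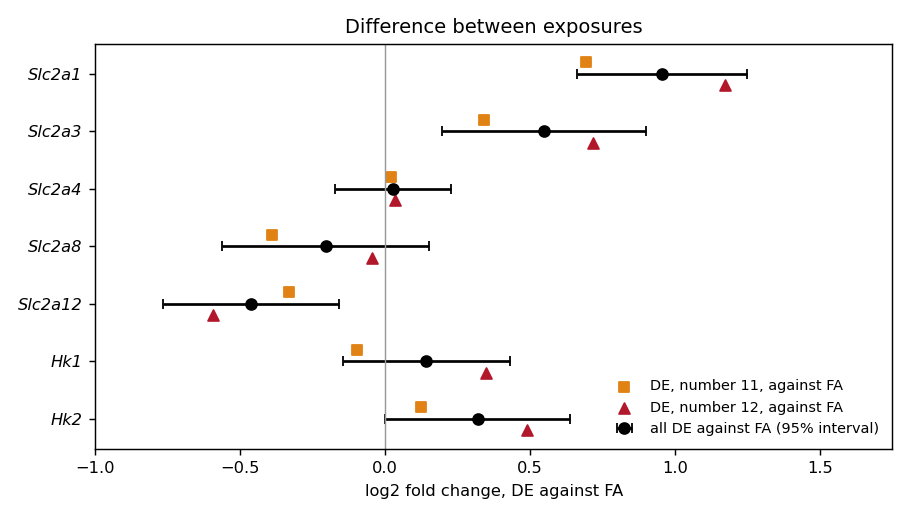
The log2 fold change of DE against FA is on the horizontal axis, with 1 line per tested gene (circle and bar, all 4 DE libraries with the 95% interval; square, the DE libraries with the number 11; triangle, those with the number 12). The triangle is further from 0 than the square for Slc2a1 (1.17 against 0.69), Slc2a3, Slc2a12, Hk1 and Hk2, and only the interval of Slc2a1, Slc2a3 and Slc2a12 leaves out 0.

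When the DE libraries of either number were fitted as groups of their own, Slc2a1 passed in both comparisons with the same FA libraries. Its log2 fold change was 0.69 (SE 0.10, adjusted p = 0.00522) for the number 11 and 1.17 (SE 0.10, adjusted p = 0.000124) for the number 12. The difference between the DE pairs themselves, 0.48 (SE 0.12), had an adjusted p of 0.0586 and was not called. For the number 11, Slc2a1 was the only called member of 7, where 2.99% of all tested genes were called. For the number 12, 5 of 7 were called, where 23.4% of all tested genes were, so that this count is read against a much larger background.

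The further 4 called for the number 12 were Slc2a3, Slc2a12, Hk1 and Hk2. Slc2a3 had a log2 fold change of 0.72 (adjusted p = 0.00981), beside 0.34 (adjusted p = 0.312) for the number 11. Slc2a12 had -0.59 (adjusted p = 0.0189) beside -0.33 (adjusted p = 0.296). Between the DE pairs, where 2.06% of all tested genes were called, 0 of 7 members were called by edgeR's quasi-likelihood test, and 2 had an unadjusted p under 0.05, as did 23.3% of all tested genes. Hk1 had 0.35 (adjusted p = 0.0421) for the number 12 beside -0.10 (adjusted p = 0.718) for the number 11, and it was the member whose direction differed between them, although the difference of 0.45 (SE 0.13) had an adjusted p of 0.0890. Hk2 had 0.49 (adjusted p = 0.0324) beside 0.12 (adjusted p = 0.730). Slc2a4 stood at 0.03 for the number 12 and 0.02 for the number 11, and Slc2a8 at -0.04 and -0.39 (adjusted p = 0.873 and 0.279).

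To set the members beside each other, CPM was divided by the length of the longest coding transcript in kb. In FA the order of these levels was Hk1 (75.9 ± 3.52 CPM per kb, SD, n = 4), Slc2a4 (29.0 ± 2.32), Hk2 (17.3 ± 1.65), Slc2a1 (8.23 ± 0.467), Slc2a8 (6.12 ± 1.16), Slc2a3 (1.73 ± 0.295), Slc2a12 (1.37 ± 0.0668) and Hk3 (0.0375). Of neighbours in that order, Slc2a3 and Slc2a12 overlapped between libraries, and with the length of all exons in place of the coding transcript they changed places (0.944 and 1.35 CPM per exon kb). Among all tested genes, Hk1 lay at percentile 97.6 of mean CPM, Slc2a4 at 81.9 and Slc2a12 at 28.3.

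In DE the same order held for the means, but Hk2 (21.7 ± 4.34 CPM per kb) and Slc2a1 (15.9 ± 3.03) lay closer together. Hk2 ran from 15.4 to 25.3 and Slc2a1 from 13.1 to 18.6 CPM per kb, so these neighbours overlapped. Below Slc2a1, and clear of it in every library, came Slc2a8 (5.28 ± 0.890 CPM per kb).

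**Figure D3:**
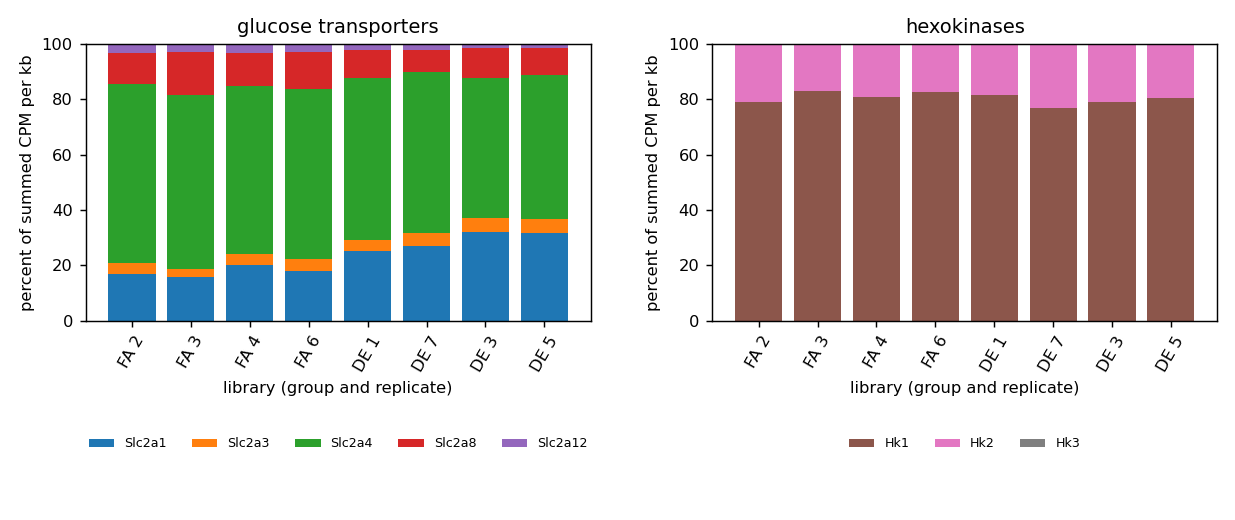
Each bar is 1 library and shows what percent of the summed CPM per kb of the 5 transporters (left) or the 3 hexokinases (right) came from each gene. The share of Slc2a1 runs from 16.0% to 20.1% over the FA libraries and from 25.3% to 32.2% over the DE libraries, while Hk1 makes up most of the hexokinase bar in every library (mean 81.4% in FA and 79.4% in DE on this length scale).

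Seen as a mixture, Slc2a1 took a larger share of the transporter transcripts in DE. It made up 17.8 ± 1.77% (SD, n = 4) of the summed CPM per kb of the 5 transporters in FA and 29.1 ± 3.41% in DE, with no overlap. Slc2a4 held 62.4 ± 1.80% in FA and 54.7 ± 4.02% in DE, also with no overlap (60.6% to 64.8% against 50.5% to 58.4%), although its own log2 fold change was 0.03. It remained the leading transporter transcript in all 8 libraries. There were 3.01 to 3.91 Slc2a4 transcripts for each of Slc2a1 in FA and 1.57 to 2.31 in DE, on the same scale per kb. With the length of all exons, the share of Slc2a1 was 21.9 ± 2.07% in FA and 34.9 ± 3.86% in DE. The shares of Slc2a8 and Slc2a12 were 13.1 ± 1.95% and 2.95 ± 0.208% in FA, and 9.68 ± 1.05% and 1.85 ± 0.345% in DE. Slc2a3 held 3.73 ± 0.651% and 4.63 ± 0.447%. Shares add to a fixed total, so a rise of Slc2a1 alone lowers the others, and they are given as a description with no test.

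The hexokinase mixture overlapped between the groups. Hk1 made up 81.4 ± 1.83% of it in FA and 79.4 ± 2.03% in DE, and Hk2 18.6 ± 1.84% and 20.5 ± 2.02% (SD, n = 4 each). Hk1 exceeded Hk2 3.77 to 4.85 times in FA and 3.31 to 4.39 times in DE, and these ranges overlapped. The ratio of Hk1 to Slc2a1 was 8.42 to 10.2 in FA and 4.81 to 5.60 in DE, with no overlap. Levels involving Hk1 depend on the length used. Per kb of all exons, Hk1 made up 70.3 ± 2.50% of the hexokinases in FA and 67.7 ± 2.70% in DE. On that scale Hk1 exceeded Hk2 2.05 to 2.63 times in FA and 1.79 to 2.38 times in DE, and exceeded Slc2a1 4.54 to 5.50 times and 2.60 to 3.02 times. Summed over the family, transporters came to 46.5 ± 2.94 CPM per kb in FA and 54.4 ± 4.26 in DE, and hexokinases to 93.3 ± 3.17 and 105.5 ± 20.0.

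Genes around the members in the pathway were taken from 6 lists of 90 genes, of which 79 could be tested. Of these, 11 were called (13.9%), 10 of them higher and 1 lower in DE, beside 5.8% of all tested genes (3.58% higher and 2.22% lower). For the DE libraries with the number 11, 4 of the 79 were called and 3 of the 11 kept their call, where 2.99% of all tested genes were called. For the number 12, 28 of the 79 were called, all 11 among them, where 23.4% of all tested genes were. The median over the 79 was 0.13 on the log2 scale, beside 0.0037 over all tested genes. The lists differed from each other in their counts, as follows.

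Glycolysis after the hexokinase step had 7 of 17 genes called, all higher in DE, and a median of 0.35. Pfkl, the liver-type phosphofructokinase at the committed step, had 84.3, 82.1, 75.4 and 87.7 CPM in FA and 123, 180, 218 and 223 CPM in DE, in the replicate order used above. It rose by 1.17 on the log2 scale (SE 0.17, adjusted p = 0.00325). Ldha, which turns pyruvate into lactate, rose from 715.5 ± 46.1 to 1170 ± 123 CPM (log2 fold change 0.71, adjusted p = 0.00405). Smaller rises were called for the aldolase Aldoc (0.69), Pfkp (0.59), Tpi1 (0.50), Pgk1 (0.46) and the pyruvate kinase Pkm (0.39). Aldoa (0.35, adjusted p = 0.135) and Gpi1 (0.22, adjusted p = 0.262), the enzyme that takes up the hexokinase product, were not called for all DE libraries. For the number 11 only Pfkl (0.88, adjusted p = 0.00797) and Ldha (0.59, adjusted p = 0.0190) passed, and the adjusted p of the other 5 ran from 0.0548 for Pfkp to 0.197 for Pkm. All 7 passed for the number 12, where 9 of the 17 were called, beside 23.4% of all tested genes. The others called there were Aldoa (0.48, adjusted p = 0.0386) and Pgam1 (0.91, adjusted p = 0.00175), both higher.

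Hypoxia-response genes had 3 of 14 called, all higher in DE, with a median of 0.35. These were the mitophagy receptor Bnip3 (88.3 ± 7.74 to 191 ± 26.0 CPM, log2 fold change 1.11), the prolyl hydroxylase Egln3 (28.1 ± 4.25 to 63.2 ± 22.8 CPM, 1.17) and Ndrg1 (39.8 ± 3.91 to 57.0 ± 10.3 CPM, 0.52). For the number 11 only Bnip3 passed (1.06, adjusted p = 0.00229), whereas Egln3 had 0.70 (adjusted p = 0.0908) and Ndrg1 0.32 (adjusted p = 0.213). All 3 passed for the number 12, where 10 of the 14 were called, beside 23.4% of all tested genes. Of those 10, Kdm3a was lower (-0.40, adjusted p = 0.0321) and the others were higher. Pdk1, which restrains pyruvate entry into mitochondria (0.35, adjusted p = 0.112), and the growth factor Vegfa (0.07, adjusted p = 0.742) were not called. Oxygen and uptake of glucose were not measured in these libraries.

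The machinery that moves GLUT4 had 1 of 18 genes called, where 5.8% of all tested genes were, and a median of 0.00. By number, 0 were called for 11 and 4 for 12, where 2.99% and 23.4% of all tested genes were. The gene called for all DE libraries was Tbc1d4, the Rab GTPase-activating protein AS160 that keeps GLUT4 vesicles inside until insulin signals. It had 113, 89.4, 101 and 92.2 CPM in FA and 76.2, 78.4, 65.3 and 67.2 CPM in DE, with no overlap, and its log2 fold change was -0.46 (SE 0.11, adjusted p = 0.0328). It was -0.36 (adjusted p = 0.139) for the number 11, which did not pass, and -0.58 (adjusted p = 0.00737) for the number 12. Rab14 (-0.13, adjusted p = 0.481) and Myo1c (0.09, adjusted p = 0.598), both in the same traffic, were not called. Its cargo Slc2a4 stood at 0.03, as given above.

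For all DE libraries against FA, the quasi-likelihood test of edgeR called 0 genes in the other 3 lists. Counts at an unadjusted p under 0.05 and by DESeq2 are given beside such lists, and over all tested genes these shares were 25.6% and 10.9% (10.7% by the likelihood ratio test). Of other sugar carriers, 7 of 13 could be tested, with a median of 0.18, 2 at an unadjusted p under 0.05 and 0 called by DESeq2, and Slc50a1 (0.13) and Slc2a10 (0.19) were the most abundant. Of other hexose kinases and the glucose-6-phosphatase system, 6 of 11 could be tested, with a median of 0.04, 1 at an unadjusted p under 0.05 and 0 called by DESeq2, among them the galactose kinases Galk1 (0.38, adjusted p = 0.146) and Galk2 (-0.01). Regulators of glucose uptake, 17 of 17 tested, had a median of -0.08, 5 at an unadjusted p under 0.05 and 2 called by DESeq2, and included Vdac1 (-0.18, adjusted p = 0.278) and Vdac2 (-0.08), the mitochondrial pores that hexokinases dock on. By number, the 30 tested genes of these lists had 1 call for 11, the regulator Klf15 (1.11, adjusted p = 0.0102), where 2.99% of all tested genes were called, and 5 for 12, where 23.4% were, namely Galk1 (0.58, adjusted p = 0.0151) and the regulators Mef2a, Mef2d, Sp1 and Txnip. Other sugar carriers had 0 calls for either number.

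**Figure D4:**
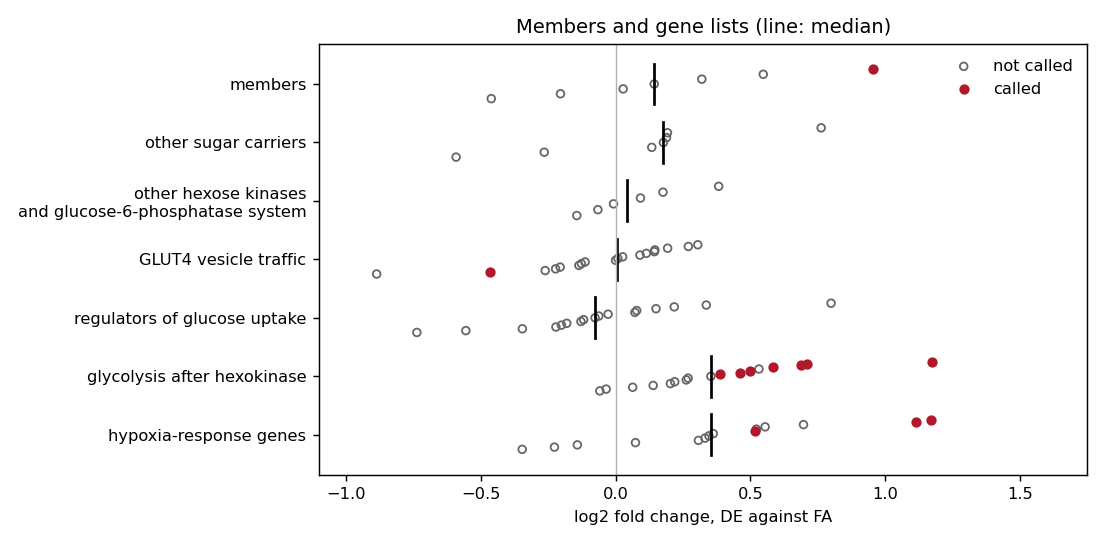
Each point is the log2 fold change of 1 tested gene, DE against FA (filled, called; open, not called), for the members and for each of 6 lists, and the vertical mark is the median of the row. Called genes of glycolysis and of the hypoxia-response list all lie to the right of 0, and the called gene of GLUT4 vesicle traffic, Tbc1d4, lies at -0.46.

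The counts for cell type markers are read against all tested genes, of which 5.8% were called and 25.6% had an unadjusted p under 0.05. DESeq2 called 10.9% and the likelihood ratio test 10.7%. Of the 9 cardiomyocyte markers, 8 had log2 fold changes below 0 and 3 were called. Myh6, the adult myosin heavy chain, was lower in DE (23286 ± 1520 to 14613 ± 685 CPM, log2 fold change -0.67, adjusted p = 0.00315), as was Pln (-0.38, adjusted p = 0.0360), while Myh7, the fetal myosin, was higher (0.53, adjusted p = 0.0157). Sums of marker genes of other cells also differed between the groups. Fibroblast markers, all 9 of which had log2 fold changes above 0, summed to 2021 to 3484 CPM in FA and 3672 to 6208 CPM in DE, with no overlap, and 2 of them (Col1a1 and Dcn) were called higher (6 at an unadjusted p under 0.05, 6 by DESeq2). By number, these sums were 4558 to 6208 CPM for 11 and 3672 to 4717 CPM for 12. Platelet markers such as Pf4 summed to 10.7 to 12.5 CPM in FA and 13.3 to 18.1 CPM in DE, with no overlap, and 0 of 4 tested were called by edgeR's quasi-likelihood test (3 at an unadjusted p under 0.05, 0 by DESeq2, 1 by the likelihood ratio test). Myeloid markers summed to 14.7 to 21.7 CPM in FA, 20.2 to 24.6 CPM for the number 11 and 25.4 to 30.7 CPM for the number 12. Cd68, the most abundant of them, had 10.3 and 9.53 CPM for the number 11 and 16.4 and 14.5 CPM for the number 12. S100a8 and S100a9 went the other way, with log2 fold changes of 1.32 and 1.30 for the number 11 and 0.70 and 0.72 for the number 12. Csf1r lay below 0 (-0.18). Of 7 tested myeloid markers, 6 lay above 0 (median 0.65) and Itgam was called higher (0.481 to 0.942 CPM, log2 fold change 0.94), with 4 at an unadjusted p under 0.05, 2 called by DESeq2 and 3 by the likelihood ratio test. Erythroid markers, of cells rich in GLUT1, summed to 760 to 1880 CPM in FA and 1209 to 2022 CPM in DE, which overlap, and 6 of 7 tested lay above 0 (median 0.40). The erythroid anion exchanger Slc4a1 was called higher (1.67 ± 0.333 to 3.20 ± 0.945 CPM, log2 fold change 0.95, adjusted p = 0.0422) with no overlap, beside 0.95 for Slc2a1, and over the list 1 was at an unadjusted p under 0.05 and 1 was called by DESeq2. The sum of smooth muscle and pericyte markers was lower in DE (1597 to 2167 CPM in FA, 1160 to 1568 CPM in DE), mostly through Acta2 and Abcc9, while 4 of the 8 markers had log2 fold changes above 0 and the median was -0.03, with 0 of 8 called (2 at an unadjusted p under 0.05, 1 by DESeq2). Endothelial markers (979 to 1279 and 1043 to 1554 CPM) and skeletal muscle markers (1036 to 1384 and 1119 to 1448 CPM) overlapped between the groups, and 0 of them were called (3 and 1 at an unadjusted p under 0.05, 2 and 0 by DESeq2). The skeletal muscle sum was nearly all Ckm, which averaged 1156 CPM in FA and 1221 CPM in DE. Myod1 had 0 CPM in every library, and Myog averaged 0.112 and 0.101 CPM, so the sum does not show skeletal muscle cells. The part of all these cell types, and of the cardiomyocyte markers' changes, in the levels of Slc2a1, Slc2a3 and Slc2a12 was not tested.

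The genes whose pattern over the 8 libraries was most like that of Slc2a1 were Cchcr1, Prelid2 and Pold1, with root mean square differences of 0.106, 0.121 and 0.123 in centred log2(CPM + 0.5) among 9189 genes that averaged 10 CPM or more. Cchcr1 went from 7.73 ± 0.541 to 13.4 ± 2.05 CPM, Prelid2 from 12.3 ± 0.946 to 21.7 ± 4.38 CPM and Pold1 from 14.4 ± 1.32 to 24.2 ± 3.13 CPM (SD, n = 4 each). Cchcr1 thus reached the average of 10 CPM over all 8 libraries only through its level in DE.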

How the data were processed

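RNA-seq of 8 NCM libraries was analysed, 4 FA and 4 DE. The deposited table gives raw counts for each Entrez gene, not normalized. The authors selected poly-A RNA, made stranded libraries, aligned reads to mm10 with TopHat and marked duplicates without removing them (Picard). They then realigned around indels, recalibrated base quality (GATK) and counted fragments with featureCounts. The strand setting and the handling of reads that fit several places are not stated, so members that overlap other genes are uncertain to that extent: Slc2a1 with the antisense Gm12867 and Gm12868 and with the microRNA gene Mir1957a on its own strand, Hk1 with Hk1os and Hk2 with Gm17034, beside those named in the report. Duplicates left in mean that counting error is understated. Of 27179 genes, 25275 were given a symbol, and the other 1904 held 0.384% to 0.581% of the counts. Nothing ties libraries to litters, so p-values measure the spread between these hearts.

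Counts were scaled by TMM and tested with edgeR 4.0.16 (glmQLFit, glmQLFTest) in R 4.3.3 on the 14966 genes kept by filterByExpr at a minimum count of 10, in a model with exposure alone, followed by Benjamini-Hochberg adjustment. The biological coefficient of variation was 15.95%. No libraries of a group were alike within sampling noise (lowest chi-square per gene 5.37). Tested on simulated data of DE against FA, 199 of 200 genes changed 2-fold were recovered (99.5%) with 14 false calls among 14966 genes. Groups were taken from the labels. Positions and lengths come from GENCODE M21 and RefSeq on GRCm38.p6, the build of mm10.

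Named genes were all members, the called genes of 6 pathway lists with up to 2 more per list of the highest CPM, and for a called member the 3 genes nearest in pattern. The members, lists and tests were chosen with earlier results of these data known. Alternatives were DESeq2 1.42.0, the likelihood ratio test, relative log expression and upper quartile factors, library totals, other filters and call rules, a term for the number 11 or 12, use of the number 11 alone, and each library left out. Offsets for transcript length and GC content (known for 92.55% of tested genes), the comparisons of the number 12 with FA and with the number 11 in a model of separate groups (its comparison of the number 11 with FA is the same fit as the term for the number), the length of all exons for levels, shares and ratios, and the split of the pathway lists by number were added after the data were seen.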

Additional observations from a re-analysis of the deposited data

Results flagged for a closer look

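In groups of 4 libraries, a value was singled out where its gap to the nearest other took up more of the group's whole range than Dixon's 95% critical value allows, which chance gives in about 1 of 20 groups. Of 14 groups tested (7 members, FA and DE), 2 passed, both in FA. For Slc2a4, FA replicate 4 was lowest at 64.6 CPM, with a gap of 0.866 of the range. For Slc2a12, FA replicate 2 was highest at 6.12 CPM, with a gap of 0.832.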

How the results depend on the processing

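Slc2a1 kept its direction and its call in all 20 alternatives run, with log2 fold changes of 0.69 to 1.04 and adjusted p of 3.28e-08 to 0.0209. Slc2a3 was called in 5 of 20, Slc2a12 in 4, Hk2 in 1 and Slc2a8 in 1 (the length and GC offsets, -0.40, adjusted p = 0.0313). Called members, 1 in the report, came to 3 with DESeq2, 3 with the likelihood ratio test, 2 with library totals, 4 with the offsets, and 1 to 4 when 1 library was left out (4 without DE replicate 1, which were Slc2a1, Slc2a3, Slc2a12 and Hk2). Hk1 turned to -0.10 with the number in the sample name as a term and to -0.10 in the libraries with the number 11, and Slc2a4 to -0.078 with the offsets and to -0.036 without FA replicate 4 (range -0.036 to 0.052 with 1 library left out). Called genes of the pathway lists, 11 in the report, came to 3 with the 25% difference built into the test, 4 with the number as a term, 4 with the number 11 only, and 3 to 14 with 1 library left out.

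Called genes over the whole table, 868 in the report, came to 1633 with DESeq2, 1603 with the likelihood ratio test, 114 with the built-in difference, 448 with the number as a term, 260 with the number 11 only, 1624 with the offsets, and 237 to 1168 with 1 library left out (249, 433 and 237 without FA replicates 2, 3 and 4, and 268 and 526 without DE replicates 3 and 5). The split of 536 higher and 332 lower was 803 and 217 with library totals, 839 and 785 with the offsets, 44 and 70 with the built-in difference, and 215 and 218 without FA replicate 3, so that lower calls were the more numerous in the last 2. The cause of these changes was not tested. The other alternatives kept the counts within 1.5 times. Hk3 was limited by depth. No paired analysis was possible because the groups share only 1 replicate number.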

Other observations

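The regulators and vesicle proteins given here as values were not called for DE against FA and were chosen after their values were seen. Klf15, a transcription factor known to raise Slc2a4, averaged 11.3 ± 2.29 CPM in FA and 19.6 ± 6.54 CPM in DE, with no overlap and an adjusted p of 0.0565 in edgeR's quasi-likelihood test, and in DE it was highest in replicate 1 (28.9 CPM), where Slc2a1 was lowest among the DE libraries. For the number 11 alone it passed (adjusted p = 0.0102). Txnip, which restrains glucose uptake, averaged 476 ± 36.8 CPM in FA and 375 ± 68.4 CPM in DE (log2 fold change -0.35, adjusted p = 0.123), but passed for the number 12 (-0.52, adjusted p = 0.0168), beside -0.19 (adjusted p = 0.507) for the number 11. Mef2a, another transcription factor of the Slc2a4 promoter, averaged 237 ± 69.5 and 143 ± 58.5 CPM (-0.74, adjusted p = 0.135), and likewise passed for the number 12 (-1.34, adjusted p = 0.00417) but not for the number 11 (-0.31, adjusted p = 0.514).

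Lnpep, the aminopeptidase IRAP that travels in GLUT4 vesicles, had 175, 62.4, 178 and 89.0 CPM in FA and 99.0, 134, 21.8 and 19.5 CPM in DE, in the replicate order of the report. The adjusted p was 0.351 for DE against FA, 0.905 for the number 11 and 0.00230 for the number 12, and the DE libraries with the number 12 lay 2.49 lower on the log2 scale than those with the number 11, written as a difference of -2.49 (adjusted p = 0.0339 in edgeR's quasi-likelihood test). Slc2a4, carried by the same vesicles, differed by 0.01 between these pairs.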
